A study of Mus musculus with 14 samples.

Results

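Adipocyte genes were examined in whole colon, a tissue in which fat cells are not the main cell type and in which fat attached to the gut wall may be taken along. A set of 32 genes known from fat cells was followed through every colon of the series. Members were found through the RefSeq accession of each array probe, and each gene was read from its brightest probe by mean signal. A probe was found for 30 of the 32 genes, out of 19092 genes with a probe on the array, and 27 of them were measurable and entered the tests, out of 15536 genes tested. No probe was matched by accession for Adrb3 and Pck1. Lep and Aqp7 were well above background on 2 of the 14 arrays and Ucp1 on 0, so these 3 genes were not tested.

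The study asked how loss of the glucocorticoid receptor (GR) in the intestinal epithelium changes the colon with and without colitis. All 14 animals were C57BL/6 females of 4 to 6 months on chow diet. Flox mice carry a floxed GR gene and served as controls, and GR iKO mice carry it together with Villin-cre, which drives recombination in intestinal epithelial cells. Drinking water was either regular (n = 4 Flox and n = 4 GR iKO) or held 2.5% DSS (dextran sulfate sodium, an agent that damages the lining of the colon) for 7 days (n = 3 of each genotype). Each array held total RNA of 1 colon sample. The sources used here do not say whether mesenteric fat was trimmed or which mice shared a cage.

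Signals were strong enough on every array for most probes. The 75th percentile of the processed signal lay between 262 and 1003 intensity units, and 62.6% to 71.3% of probes were well above background. Levels are given as log2 signal relative to that 75th percentile, so that 0 is the 75th percentile of the array, and only levels of the same gene are compared. The targeted gene Nr3c1 had 57.3% of the Flox signal in GR iKO colons on water (limma adjusted p = 0.0091), in the direction the genotype labels imply. Each group had the same position on every slide that carried it (slides 1 and 4 held all 4 groups, slide 2 no GR iKO DSS and slide 3 no Flox DSS array), so position and group cannot be told apart.

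White adipocytes store triglyceride in a single large droplet coated by perilipins and CIDE proteins. They take up fatty acids with lipoprotein lipase and CD36, release them through the lipases ATGL and HSL, and secrete adiponectin, leptin and resistin. In the gut, fat cells sit mainly in the mesentery and around the outer wall, while several enzymes of triglyceride synthesis are also made by colonocytes and some lipid-handling proteins by macrophages, endothelium or muscle. The genes therefore differ in how far they mark fat cells. Adipoq, Lep, Plin1, Cidec, Retn, Adig, Lgals12 and Adrb3 were taken as the defining ones. Adipoq, Retn, Plin1, Cidec and Lgals12 were well above background on all 14 arrays, Adig on 4 and Lep on 2, so RNA of fat cells was measurable in these colons and its weakest markers were near the detection limit.

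To show the regulatory sequence of the defining genes that varied together between mice, the 250 bases before the annotated start of Adipoq, Plin1, Retn and Cidec are given 5′ to 3′ on the gene's own strand. They come from RefSeq on assembly GRCm38.p6, and capitals mark the letters CCAAT or its complement ATTGG, the motif bound by the general factor NF-Y. Cidec has 2 annotated starts.
Adipoq, chr16:23146286-23146535, plus strand: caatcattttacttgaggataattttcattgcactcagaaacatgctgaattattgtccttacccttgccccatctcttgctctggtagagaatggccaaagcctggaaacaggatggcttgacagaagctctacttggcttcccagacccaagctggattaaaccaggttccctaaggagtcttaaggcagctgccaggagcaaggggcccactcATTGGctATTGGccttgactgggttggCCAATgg
Plin1, chr7:79732777-79733026, minus strand: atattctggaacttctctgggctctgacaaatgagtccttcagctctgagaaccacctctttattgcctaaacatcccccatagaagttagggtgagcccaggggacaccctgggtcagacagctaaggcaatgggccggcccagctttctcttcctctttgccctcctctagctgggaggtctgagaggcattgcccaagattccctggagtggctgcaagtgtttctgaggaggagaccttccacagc
Retn, chr8:3655520-3655769, plus strand: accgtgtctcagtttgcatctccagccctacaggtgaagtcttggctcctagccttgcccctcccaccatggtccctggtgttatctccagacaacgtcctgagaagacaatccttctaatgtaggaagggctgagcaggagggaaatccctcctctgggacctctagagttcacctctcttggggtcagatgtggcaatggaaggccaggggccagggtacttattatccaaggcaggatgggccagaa
Cidec, chr6:113434765-113435014, minus strand: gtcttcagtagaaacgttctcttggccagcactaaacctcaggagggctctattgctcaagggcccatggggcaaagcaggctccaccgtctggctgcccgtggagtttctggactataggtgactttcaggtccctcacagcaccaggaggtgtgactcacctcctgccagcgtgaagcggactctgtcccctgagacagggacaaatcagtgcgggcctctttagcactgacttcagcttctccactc
Cidec, chr6:113435761-113436010, minus strand: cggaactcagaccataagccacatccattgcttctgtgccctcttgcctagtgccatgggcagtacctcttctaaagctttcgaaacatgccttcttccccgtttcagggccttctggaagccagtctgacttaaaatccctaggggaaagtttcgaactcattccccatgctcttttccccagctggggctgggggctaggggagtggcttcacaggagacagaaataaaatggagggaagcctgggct
Promoters of 250 bases before to 50 bases after the start were available for 21 of the members, 27 promoters in all, among 32851 in the table. Adipoq held 3 CCAAT motifs, at -34, -27 and -7 from its start (first base of each match), and those printed for Plin1, Retn and Cidec held none. CCAAT, read on both strands, was in 29.6% of the member promoters and in 37.4% of all promoters. The DR1 direct repeat, which PPARG with its partner RXR can bind, was in 0 member promoters and in 0.0396% of all. The consensus GR palindrome was in 0 member promoters and in 0.0487% of all, and TTGCGCAA, a C/EBP motif, was in the Lep promoter alone among the members, at -55, against 0.183% of all. TATAAA was in 7.41% of the member promoters (Retsat and Cebpa) and in 13.6% of all. No motif searched contains another, and a missing match says only that these letters are not in the window.

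Adipoq, the hormone adiponectin, was the defining gene against which the others were read. In Flox colons on water its level was 2.44, 1.17, 1.30 and 0.82 in replicates 1 to 4. In GR iKO colons on water it was 2.31, 1.98, 2.39 and 0.84. Water colons of both genotypes thus covered the same range, with a 3.07-fold span between the lowest and the highest Flox mouse. On DSS, Flox replicates 1, 2 and 4 stood at 1.55, 3.54 and 2.65, and GR iKO replicates 1, 3 and 4 at -1.56, 1.92 and -1.87. GR iKO replicates 1 and 4 on DSS were below all 12 other colons, whereas GR iKO replicate 3 lay among the Flox colons on DSS. The span within GR iKO DSS was 13.9-fold.

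Plin1, the perilipin that guards the droplet of white adipocytes, had the same 2 low colons. Its level on DSS was -1.90, 0.61 and 0.34 in Flox replicates 1, 2 and 4 and -4.43, -0.45 and -5.31 in GR iKO replicates 1, 3 and 4. On water it was -0.15, -1.72, -1.57 and -2.07 in Flox and -0.46, -0.59, -0.18 and -1.39 in GR iKO. Retn, the hormone resistin, showed the widest span, 59.7-fold within GR iKO DSS. Its level was -1.31, 0.20 and 1.22 in Flox on DSS and -4.36, 0.83 and -5.07 in GR iKO on DSS. On water it was 1.22, -0.45, -0.14 and -0.49 in Flox and 0.84, -0.06, 1.26 and -0.27 in GR iKO. For both genes the 2 low colons lay below every other colon and GR iKO DSS replicate 3 lay within the range of the water colons.

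Cidec, a droplet protein that enlarges droplets by lipid transfer, was less low in those 2 mice. Its level was 2.28, 1.27, 1.53 and 1.02 in Flox on water, 2.75, 4.67 and 3.43 in Flox on DSS, 2.42, 2.19, 2.48 and 1.49 in GR iKO on water, and 1.24, 3.23 and 1.55 in GR iKO on DSS. All 3 Flox DSS colons were above all 8 water colons, and GR iKO replicates 1 and 4 stayed within the water range. Lgals12, the droplet-associated galectin-12, followed another pattern. Its level was 0.28, -0.12, -0.24 and -0.41 in Flox on water and 0.47, 0.33, 0.12 and 0.16 in GR iKO on water, against -4.21, -2.96 and -1.73 in Flox on DSS and -3.60, -3.26 and -2.92 in GR iKO on DSS. Every DSS colon was below every water colon in both genotypes, with no separate pair of low mice.

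Adig (adipogenin) and Lep (leptin) were near background. Adig was well above background in 1 of 4 Flox and 2 of 4 GR iKO colons on water, in 1 of 3 Flox colons on DSS and in 0 of 3 GR iKO colons on DSS. Lep was well above background in Flox DSS replicate 2, where its level was -2.82, and in GR iKO water replicate 1, at -5.33. Flox DSS replicate 2 was also the highest of the 14 colons for Adipoq, Plin1 and Cidec.

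**Figure D1:**
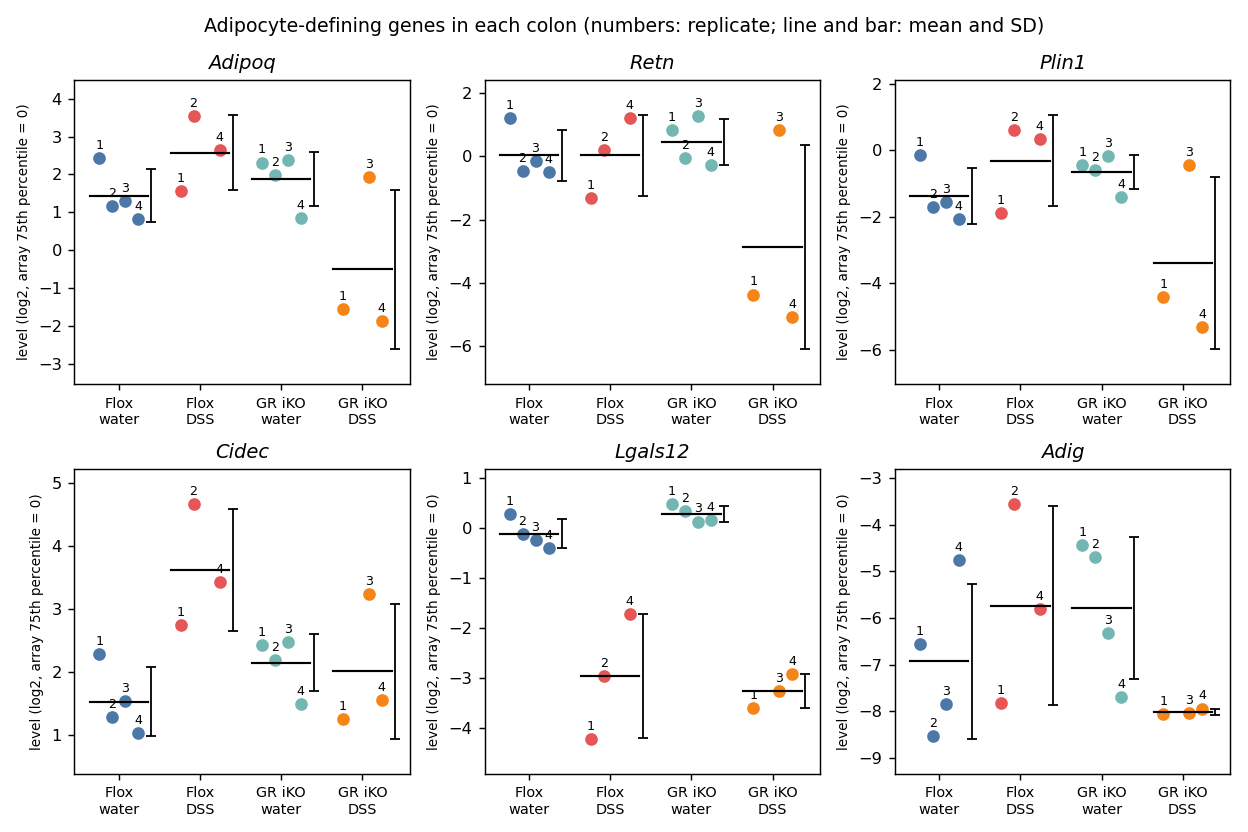
Levels of 6 adipocyte-defining genes in each of the 14 colons, as log2 signal with the array's 75th percentile at 0 on the vertical axis and the 4 groups on the horizontal axis. Points are colons labelled by replicate, the line is the group mean and the bar its SD. Adipoq, Retn and Plin1 are lowest in GR iKO DSS replicates 1 and 4, whereas Lgals12 is lower in all 6 DSS colons than in the 8 water colons.

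The spread between mice of 1 group was wider for these genes than for the array as a whole. The median SD of the 27 tested genes on water was 0.36 (Flox) and 0.28 (GR iKO), compared with 0.18 and 0.17 over all 29523 tested probes. On DSS it was 0.61 in Flox and 0.59 in GR iKO, against 0.26 and 0.34. Single colons stood at the ends of their groups for most members. Flox water replicate 1 was the highest of its group for 20 of 27 genes (74.1%, against 26.5% of all probes), and GR iKO DSS replicate 3 was the highest of its group for 20 of 27 (74.1%, against 37.7%). GR iKO DSS replicate 1 was the lowest for 19 of 27 (70.4%, against 41.8%), as was Flox DSS replicate 1 (70.4%, against 28.1%). GR iKO DSS replicate 4 was the lowest for 6 of 27 (22.2%, against 24.7%), among them Adipoq, Plin1, Retn and Cfd. This count ranks the colons of a group and does not say how low a colon was.

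To describe which members varied together, the deviation of each colon from its group mean was correlated with that of Adipoq over the 14 arrays. Plin1 (Pearson r = 0.97), Lpl (0.96), Car3 (0.96), Cidec (0.95), Cfd (0.93), Fabp4 (0.93), Retn (0.93), Cd36 (0.87) and Plin4 (0.81) stood above 0.8. These 9 of 26 compare with 0.776% of 13265 other genes. Without the 3 GR iKO DSS arrays, 7 of 26 stayed above 0.8 (0.49% of other genes), and within the 8 water arrays alone 10 of 26 did (3.69%). On water the 10 were Plin1, Lpl, Car3, Cidec, Fabp4, Retn, Cd36 and Plin4 again, with Slc2a4 (0.92) and Dgat2 (0.91) in addition and Cfd at 0.75. No value was taken per genotype. Arrays share the scaling of each library, so these values are a description.

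The remaining members ranged widely. Slc2a4 (0.75), Lipe (0.70), Acvr1c (0.59) and Thrsp (0.58) stood above 0.5 over the 14 arrays. Lgals12 (0.28), Pnpla2 (0.27), Apoc1 (0.26), Cebpa (0.21) and Gpd1 (0.17) were lower, where the median of other genes was -0.04. These values depended on the arrays used, since on water alone Gpd1 had 0.80, Lgals12 0.72, Apoc1 0.56, Cebpa -0.02 and Pnpla2 -0.29. Retsat (-0.70) and Agpat2 (-0.74) were negative, and Retsat had -0.01 without the GR iKO DSS arrays and -0.62 on water, while Agpat2 had -0.65 and -0.22. Among genes outside the set, the 10 most like Adipoq were Rev1 (0.97), Slc43a1 (0.94), Fzd4 (0.93), Cd248 (0.93), Tenm4 (0.92), Thbs2 (0.92), Glb1l2 (0.91), Slc29a1 (0.90), Rbmx (0.90) and Ormdl3 (0.90), of which Cd248 and Thbs2 encode proteins of stromal cells and matrix.

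**Figure D2:**
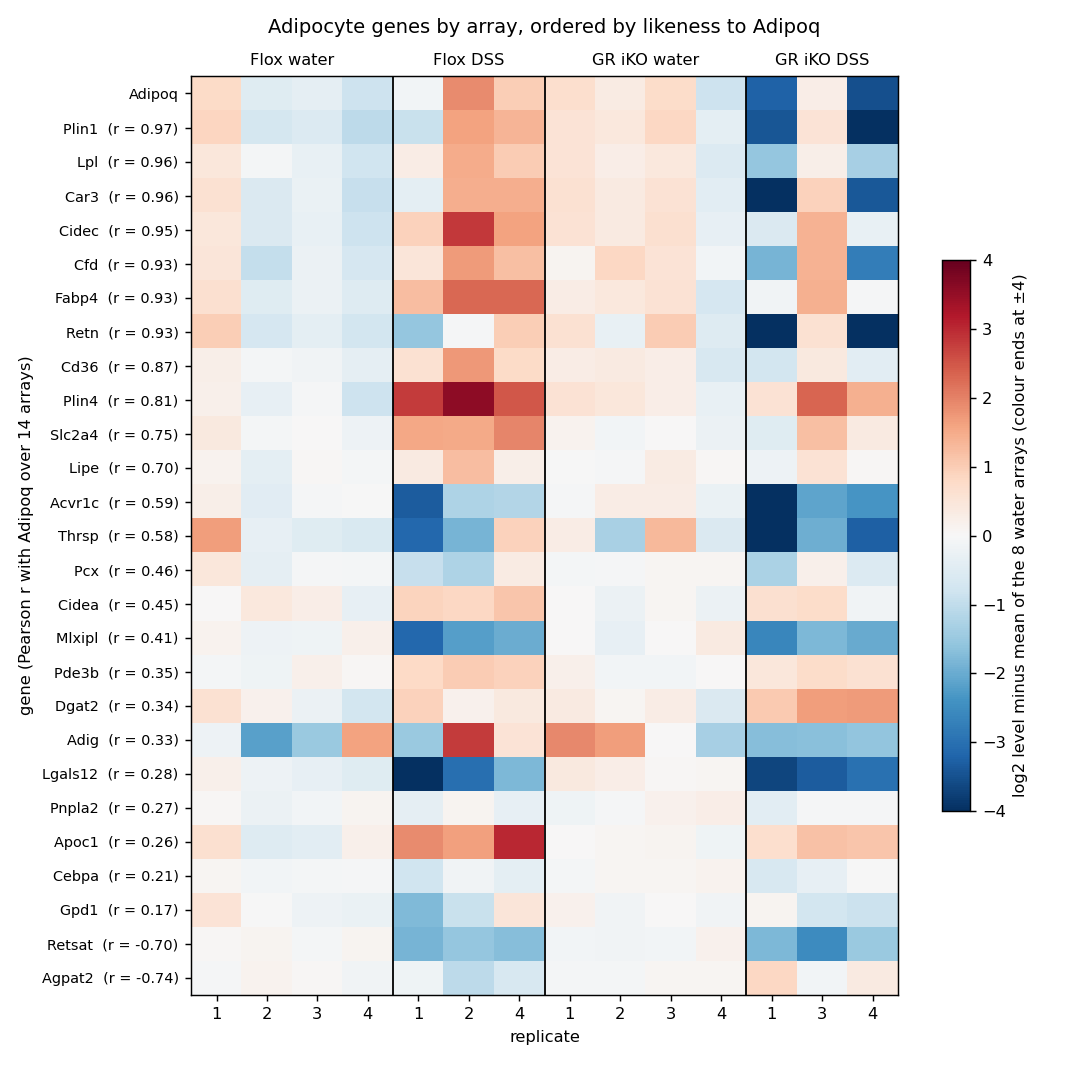
Heat map of the 27 tested genes (rows, ordered by the Pearson r of their deviations from group means with those of Adipoq) in the 14 colons (columns, by group and replicate). Colour is the log2 level minus the mean of the 8 water arrays. Adipoq, Plin1, Car3, Cfd and Retn are blue in GR iKO DSS replicates 1 and 4, and Lgals12, Mlxipl and Retsat are blue in all DSS colons.

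The first comparison asked how colitis changed these genes in control mice. With DSS in Flox colons, 9 of 27 members rose and 5 fell on the 75th-percentile scale (adjusted p under 0.05 from limma, Benjamini-Hochberg over all 29523 probes). With arrays scaled to the 7 spike-in probes 0 members rose and 16 fell, where 219 of 29523 probes rose and 25031 fell. The median of all probes was -2.40 under that scaling and -0.09 under the main one. On the 75th-percentile scale the share of members called, 51.9%, was near that of all probes, 47.2%, so being changed by DSS was not particular to these genes. The 9 that rose were 33.3% of the tested members, and 21.8% of all probes rose and 25.4% fell. Groups did not overlap for 16 of 27 members, and for 57.4% of all probes. The median change of the members was 0.85. All changes that follow are log2 differences relative to the 75th percentile, with the standard error of the fit, and in these whole-tissue samples a smaller number of fat cells and less RNA per fat cell cannot be told apart.

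Droplet proteins held the largest increase. Plin4, a perilipin of the nascent droplet that muscle also makes, was at 1.64, 1.11, 1.38 and 0.61 in Flox on water and at 4.23, 5.02 and 3.93 on DSS. It rose by 3.21 ± 0.44 (9.22-fold, adjusted p = 0.000124) with no overlap, and under spike-in scaling the change was 0.89 and did not pass (adjusted p = 0.129). Cidec rose by 2.09 ± 0.56 (adjusted p = 0.00915), and Cidea, its relative best known from brown fat, by 0.85 ± 0.26 (0.0183), although under spike-in scaling the changes were -0.23 and -1.47. Plin1 had 1.06 ± 0.96 (0.388) and did not pass. Lgals12 fell by 2.84 on the log2 scale (SE 0.39, adjusted p = 0.000131), opposite to Plin4, Cidec and Cidea under the main scaling. With spike-in scaling Cidec and Cidea were negative as well, while Plin4 stayed positive (0.89) and did not pass. No other alternative turned the sign of Plin4, Cidec, Cidea or Lgals12. Which cells made the RNA of these genes was not tested. Without Flox DSS replicate 2, the colon with the highest Adipoq level, Cidec no longer passed (1.57 in place of 2.09, adjusted p = 0.0921), and Cidea did not pass without Flox DSS replicate 1, 2 or 4 (adjusted p = 0.0601 to 0.0754).

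Proteins that bring fatty acids into the cell came next. Fabp4, the fatty acid carrier of adipocytes that endothelium and macrophages also express, was at 4.67, 3.55, 3.80 and 3.52 on water and 5.29, 6.35 and 6.34 on DSS. It rose by 2.10 ± 0.54 (adjusted p = 0.00707, but -0.21 under spike-in scaling), and the 3 DSS colons were above all 4 water colons. The fatty acid translocase Cd36 rose by 1.12 ± 0.39 (0.0321, but -1.20 under spike-in scaling), and Lpl, which frees fatty acids from lipoproteins, had 1.12 ± 0.51 (0.0919). Without Flox DSS replicate 2, Fabp4 had an adjusted p of 0.0541 and Cd36 of 0.229, and Cd36 also missed the threshold without Flox DSS replicate 1 or Flox water replicate 2 or 4 (0.0516 to 0.0612). Lpl passed without Flox water replicate 1 (0.0431).

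Of the secreted factors, 1 of 4 passed. Apoc1, an apolipoprotein of lipoproteins that macrophages also make, was at 0.53, -0.63, -0.56 and 0.08 on water and 1.77, 1.51 and 2.89 on DSS. It rose by 2.20 ± 0.40 (4.61-fold, adjusted p = 0.00075) with no overlap, against -0.11 under spike-in scaling. Cfd (adipsin, complement factor D) had 1.48 ± 0.73 (0.116, and 0.025 without GR iKO DSS replicate 3), Adipoq 1.15 ± 0.84 (0.286) and Retn 0.00 ± 1.10 (1.0). Hormones that mark fat cells thus did not pass in Flox, with wide standard errors.

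Among genes of lipolysis, Pde3b, the phosphodiesterase through which insulin restrains lipolysis, rose by 0.91 ± 0.16 (0.000714), against -1.41 under spike-in scaling. Hormone-sensitive lipase Lipe rose by 0.69 ± 0.26 (0.0428), against -1.63 under spike-in scaling, and lost its call in 11 of 28 alternatives. Among these were the runs without Flox DSS replicate 1 or 2, Flox water replicate 2 or 4, GR iKO water replicate 1 or 4 and GR iKO DSS replicate 4 (adjusted p = 0.0517 to 0.327). Acvr1c, the receptor ALK7 that restrains lipolysis in fat, fell by 1.83 on the log2 scale (SE 0.51, adjusted p = 0.011, and 0.117 without Flox DSS replicate 1). Pnpla2 (ATGL), which starts triglyceride breakdown, had -0.14 ± 0.20 (0.596). In glucose uptake and triglyceride synthesis, the insulin-regulated transporter Slc2a4, shared with muscle, rose by 1.63 ± 0.30 (0.000834), against -0.69 under spike-in scaling. It stood at 1.85, 1.39, 1.49 and 1.27 on water and 3.00, 2.97 and 3.42 on DSS. The acyltransferase Agpat2 fell by 0.62 on the log2 scale (SE 0.21, adjusted p = 0.0279), and Thrsp, Gpd1, Pcx and Dgat2 lay between -1.43 and 0.53 without passing. Agpat2 did not pass without Flox DSS replicate 2 (adjusted p = 0.215) or 4 (0.0712), while Gpd1 (0.0109) and Pcx (0.0293) passed without replicate 4. Probes of a gene disagreed here, since a dimmer probe of Gpd1 passed at -1.46 (0.0086) and 1 of the 2 dimmer Dgat2 probes at 1.27 (0.0319).

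The transcription factor Mlxipl (ChREBP), which turns on lipogenic genes in response to glucose in fat, liver and gut, fell steeply. It was at 1.66, 1.29, 1.32 and 1.70 on water and -1.63, -0.70 and -0.48 on DSS, a fall by 2.43 on the log2 scale (SE 0.29, adjusted p = 4.73e-05). Retsat, a retinol saturase that the epithelium also makes, was at 1.99, 2.05, 1.84 and 2.03 on water and 0.06, 0.39 and 0.23 on DSS. It fell by 1.75 on the log2 scale (SE 0.20, adjusted p = 3.23e-05). Both genes were lower in every DSS colon than in every water colon. Cebpa, which maintains the adipocyte program, had -0.40 ± 0.17 (0.066, with 0.0468 without Flox DSS replicate 2 and 0.0484 without GR iKO DSS replicate 1), its dimmer probe passed at -0.39 (0.0456), and the carbonic anhydrase Car3, abundant in fat and muscle, 1.13 ± 0.89 (0.319).

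The second comparison asked the same in GR iKO mice. With DSS, 2 of 27 members rose and 9 fell relative to the 75th percentile (40.7% called, against 38.8% of all probes). Under spike-in scaling 0 members rose and 16 fell, where 765 of 29523 probes rose and 11749 fell. The median of all probes was -0.95 under that scaling, against -0.02. The 9 that fell were 33.3% of the members, and 19.7% of all probes fell and 19.0% rose. The groups did not overlap for 10 of 27 members, and for 46.3% of all probes. The median change was -0.48. Both comparisons have their own water controls.

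Defining genes made up 4 of the 9 that fell, and 3 of these, with Car3, showed the low pair. Retn fell by 3.31 on the log2 scale (SE 1.10, adjusted p = 0.0312), Plin1 by 2.74 (SE 0.96, adjusted p = 0.0384) and Adipoq by 2.39 (SE 0.84, adjusted p = 0.0406). Car3, at 1.96, 1.71, 1.93 and 0.94 on water and -2.72, 2.28 and -2.03 on DSS, fell by 2.46 (SE 0.89, adjusted p = 0.0447). For Retn, Plin1, Adipoq and Car3 the groups overlapped, since GR iKO DSS replicate 3 lay within or above the water colons. Without GR iKO DSS replicate 1 none of these passed (adjusted p = 0.147 for Retn, 0.153 for Plin1, 0.168 for Adipoq and 0.248 for Car3), and without replicate 4 none did either (0.205, 0.241, 0.224 and 0.216). A fit of the GR iKO arrays alone, with equal weights, called none of these (adjusted p = 0.0759 for Adipoq, 0.0881 for Retn, 0.0792 for Plin1 and 0.118 for Car3). With equal weights and all arrays kept, Adipoq, Retn and Plin1 still passed, so for these genes the loss came with leaving out the Flox arrays. Car3 lost its call with equal weights alone (limma adjusted p = 0.0519). With the normexp background Retn (-2.15, 0.0609) and Plin1 (-1.58, 0.0858) did not pass, and Car3 did not with equal weights or with no filter on dim probes. The calls were near the threshold in other runs too. Without GR iKO water replicate 1 or 3 none of them passed, nor Adipoq, Plin1 and Car3 without replicate 2 (adjusted p = 0.0513 to 0.0717 in these runs). Without 1 Flox colon, Adipoq missed it for water replicate 2 and DSS replicates 1 and 2, Plin1 for DSS replicate 2, and Car3 for water replicates 2 and 3 and all DSS replicates (0.0503 to 0.0597).

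Lgals12, Acvr1c, Mlxipl and Retsat fell irrespective of the colon left out. Lgals12 fell by 3.53 on the log2 scale (SE 0.39, adjusted p = 5.14e-05) and Acvr1c by 3.01 (SE 0.51, adjusted p = 0.000782). Mlxipl fell by 2.16 (SE 0.29, adjusted p = 0.000175) and Retsat by 1.89 (SE 0.20, adjusted p = 3.44e-05). Acvr1c was at -1.59, -1.23, -1.24 and -1.79 on water and -5.89, -3.65 and -3.89 on DSS, with no overlap. Lgals12, Mlxipl and Retsat passed under all 28 alternatives in both genotypes, and for each of them GR iKO DSS replicate 3 lay below all water colons, as replicates 1 and 4 did. Thrsp, a small protein that promotes lipogenesis, fell by 3.27 (SE 1.12, adjusted p = 0.0355) and stood at 0.59, -1.0, 1.61 and -0.28 on water and -4.49, -1.67 and -2.96 on DSS. It did not pass without GR iKO DSS replicate 1 (0.149) or 4 (0.101), nor without GR iKO water replicate 1 or 3 or Flox DSS replicate 2 (0.0539 to 0.0572), nor with the normexp background (0.0613).

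Of the members that rose in GR iKO, Dgat2, the last enzyme of triglyceride synthesis, was at 3.67, 3.39, 3.60 and 2.73 on water and 4.36, 4.97 and 5.0 on DSS. It rose by 1.43 ± 0.45 (adjusted p = 0.024) with no overlap, but did not pass without GR iKO DSS replicate 3 (0.0721) or 4 (0.102), or under spike-in scaling (0.51, adjusted p = 0.436). The other Dgat2 probes rose as well, by 2.11 and 1.83. Pde3b rose by 0.60 ± 0.16 (0.0118), against -0.32 under spike-in scaling. Plin4 had 1.19 ± 0.44 and an adjusted p of 0.0501 (0.0222 to 0.0488 without Flox water replicate 1 or 4, Flox DSS replicate 4, GR iKO water replicate 1 or GR iKO DSS replicate 1), and stood at 2.00, 1.87, 1.71 and 1.14 on water and 2.00, 3.75 and 2.84 on DSS. Fabp4 had 0.25 ± 0.54 (0.743), Cidec -0.14 ± 0.56 (0.869) and Cfd -1.43 ± 0.73 (0.145, and 0.00523 without GR iKO DSS replicate 3). Cfd showed the low pair again, at 4.99, 5.72, 5.45 and 4.79 on water and 3.02, 6.27 and 2.13 on DSS.

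**Figure D3:**
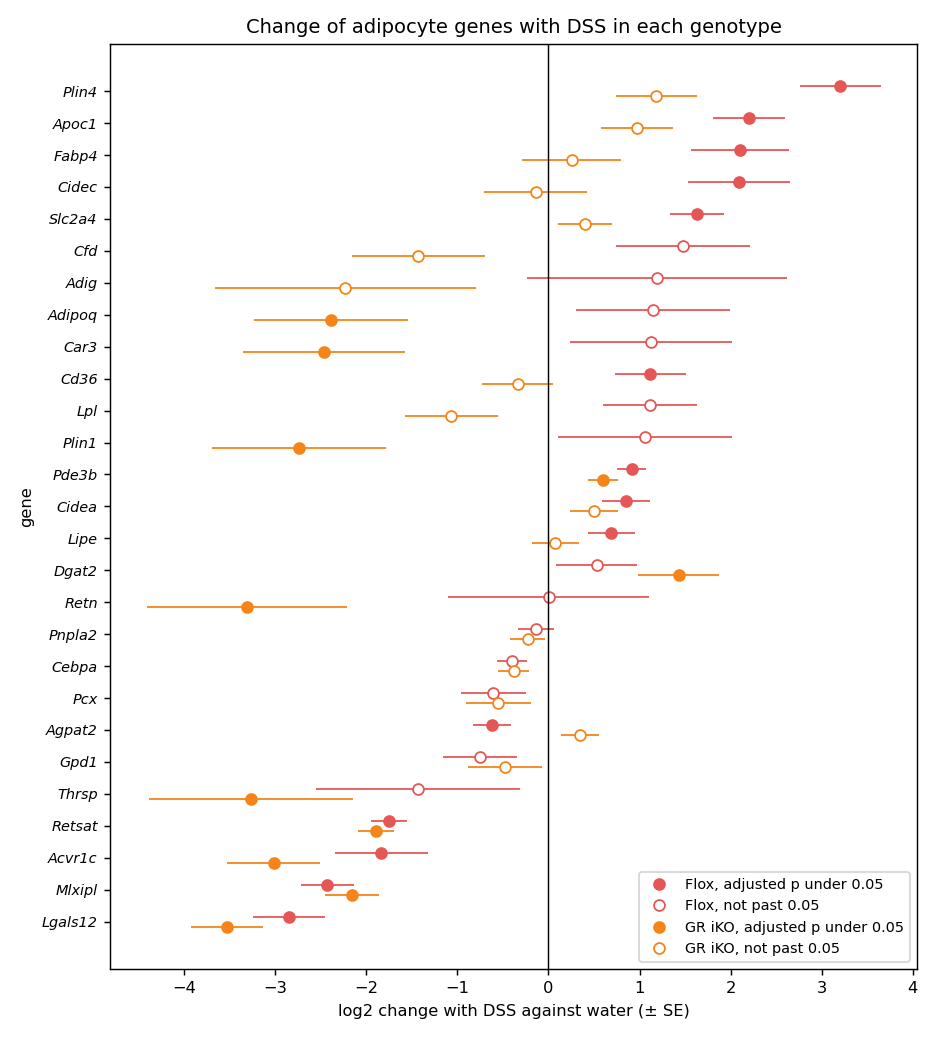
Log2 change with DSS against water, with its standard error, for the 27 tested genes (rows) in Flox (red) and GR iKO (orange) mice, on the 75th-percentile scale. Filled points passed the test. Lgals12, Mlxipl, Acvr1c and Retsat are at the left in both genotypes, while Adipoq, Plin1 and Car3 lie on opposite sides of 0. With arrays scaled to spike-in probes, 8 of the 9 filled red points on the right and 1 of the 2 orange ones would lie left of 0.

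Genotype was then compared directly. On water, 0 of 27 members passed (limma, and 0 at an unadjusted p under 0.05), where 0.0237% of all probes passed and 3.34% had an unadjusted p under 0.05. Groups did not overlap for 0 of 27, against 2.26% of all probes. Adipoq was 0.45 ± 0.50 higher in GR iKO, Plin1 0.72 ± 0.57, Cidec 0.62 ± 0.34 and Plin4 0.49 ± 0.26, each with an adjusted p of 1.00 and with overlapping groups. On DSS, 0 of 27 passed as well, where 0.0203% of all probes passed, although 12 had an unadjusted p under 0.05 (44.4%, against 17.6% of all probes). Groups did not overlap for 10 of 27, against 22.8% of all probes. GR iKO minus Flox was -3.09 ± 1.08 for Adipoq (adjusted p = 0.172), -3.08 ± 1.22 for Plin1 (0.22), -3.02 ± 1.14 for Car3 (0.199), -1.31 ± 0.38 for Slc2a4 (0.121) and 0.97 ± 0.27 for Agpat2 (0.108). For Adipoq, Plin1 and Car3 the difference came with the low values of GR iKO replicates 1 and 4, and replicate 3 lay within the Flox range.

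Array weights and 1 colon moved the number of members that passed on DSS. With equal weights for all arrays 7 members passed (1 higher and 6 lower in GR iKO, 13.2% of all probes), with a quality weight per array 5 passed, all lower (11.8%), and without GR iKO DSS replicate 3 it was 7 (1 higher and 6 lower, 2.43%). Adipoq and Slc2a4 passed in each of these 3 settings. Under the remaining 25 alternatives 0 members passed. Within slides the direction was not stable either. On slide 1, which held GR iKO DSS replicate 3 and Flox DSS replicate 1, Adipoq was 0.37 higher in GR iKO and the median over the members was 0.37. On slide 4, with replicate 4 of both genotypes, Adipoq was lower by a difference of -4.52 and the median was -1.26.

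The genotype by DSS interaction, the DSS change in GR iKO minus that in Flox, passed for 0 of 27 members and for 0% of all probes (limma, with 12 members and 14.8% of probes at an unadjusted p under 0.05). It was -3.53 ± 1.19 for Adipoq (adjusted p = 0.214), -3.80 ± 1.35 for Plin1 (0.23) and -2.02 ± 0.62 for Plin4 (0.188). With a quality weight per array 5 members passed, all lower, where 2065 of 29523 probes passed (885 higher and 1180 lower). With spike-in scaling 3 members passed, all higher, where 8475 of 29523 probes passed, also all higher, and the median of all probes was 1.42. A different DSS response of fat-cell genes between the genotypes was therefore not established at this number of mice, and neither was a like response.

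Within slides, the DSS change of Adipoq in Flox was -0.88 on slide 1, 2.36 on slide 2 and 1.83 on slide 4, and in GR iKO it was -0.47 on slide 1, -3.88 on slide 3 and -2.71 on slide 4. The median over the 27 members was -0.41, 1.21 and 1.13 in Flox and -0.19, -1.18 and -0.33 in GR iKO. With slide as a block, 14 members passed in Flox and 12 in GR iKO, where 14398 and 11790 of 29523 probes passed. In Flox Agpat2 lost its call (adjusted p = 0.0531) and Lpl gained one (0.0367), and in GR iKO Plin4 gained one (0.0191).

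Other genes of the adipocyte pathways, and markers of other cells, were read from lists on the 75th-percentile scale. Under spike-in scaling 33 of the 41 of these genes that rose in Flox had a negative change, as had 3 of the 24 in GR iKO, and none of those that fell turned. Over all probes 21.8% rose and 25.4% fell in Flox and 19.0% and 19.7% in GR iKO, with median changes of -0.09 and -0.02. The share called in the 6 pathway lists ran from 33.3% (further adipocyte-enriched genes) to 87.5% (brown fat genes) in Flox and from 33.3% (lipase handling) to 63.6% (lipolysis partners) in GR iKO. The list medians were 0.91 and 0.26 for adipogenic regulators in Flox and GR iKO, -0.26 and -0.63 for fatty acid synthesis, and 0.86 and 0.44 for lipolysis partners. They were 0.46 and 0.16 for lipase handling, 0.75 and -0.52 for the further enriched genes and -0.06 and -0.89 for brown fat genes. Of 12 adipogenic regulators, 4 rose and 1 fell with DSS in Flox and the same numbers did in GR iKO. The inflammation-responsive factors Cebpb (3.18 ± 0.20 in Flox and 3.29 ± 0.20 in GR iKO) and Cebpd (2.73 ± 0.31 and 2.53 ± 0.31) led, whereas Pparg, the master regulator of adipocytes that colonocytes also express, had -0.06 ± 0.23 and 0.02 ± 0.23 and did not pass. Of 12 genes of fatty acid synthesis, 1 rose and 5 fell in Flox and 0 rose and 5 fell in GR iKO. Scd2, a desaturase, fell by 1.75 on the log2 scale in Flox and by 2.09 in GR iKO, and fatty acid synthase Fasn fell by 0.97 and by 1.25. Scd2, Fasn and Mlxipl thus fell in both genotypes.

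Of 11 tested lipolysis partners and droplet coats, 6 rose and 1 fell in Flox and 5 rose and 2 fell in GR iKO. Mgll, which splits monoglycerides, rose by 2.31 ± 0.21 in Flox and by 1.46 ± 0.21 in GR iKO, and G0s2, an inhibitor of ATGL, by 1.69 ± 0.37 and 1.31 ± 0.37, where in Flox spike-in scaling gave -0.01 and -0.63. Abhd5, the coactivator of ATGL, fell by 1.25 on the log2 scale in Flox and by 1.02 in GR iKO. The ATGL gene Pnpla2 itself did not pass in either genotype. Of 9 tested genes of lipase handling and fatty acid transport, 5 rose and 1 fell in Flox and 2 rose and 1 fell in GR iKO. Angptl4, a secreted inhibitor of lipoprotein lipase, rose by 4.24 ± 0.71 and by 4.90 ± 0.71, a larger change than that of any member that rose.

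Of 12 further adipocyte-enriched genes, 3 rose and 1 fell in Flox and 2 rose and 3 fell in GR iKO. Mest rose by 2.85 ± 0.22 in Flox and 2.24 ± 0.22 in GR iKO, and Sncg, which enteric neurons also express, by 2.83 ± 0.21 and 1.65 ± 0.21. Rbp4, a retinol carrier secreted by liver and fat, fell by 1.84 on the log2 scale in GR iKO. The brown fat list, of which 8 of 11 genes were tested, was split. In Flox 4 rose and 3 fell and in GR iKO 1 rose and 4 fell. Dio2, the deiodinase that activates thyroid hormone, rose by 5.30 ± 0.35 and 5.86 ± 0.35, and Ppargc1a and Prdm16, regulators of brown fat that other tissues share, fell by 2.53 and by 0.99 in Flox. Ucp1, which defines brown fat, and Elovl3, Otop1 and Zic1 were well above background on 0 arrays.

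Markers of other tissues that can cling to a dissected colon were read in the same arrays. For the 6 tested adipocyte-defining genes the summed linear level, with the 75th percentile of the array as 1, was 5.53 to 14.7 in Flox and 6.93 to 15.2 in GR iKO on water, 10.4 to 39.9 in Flox on DSS and 2.89 to 15.8 in GR iKO on DSS. In GR iKO DSS replicates 1, 3 and 4 it was 2.89, 15.8 and 3.39. The 7 pancreatic acinar genes (Prss2, Ctrb1, Cpa1, Pnlip, Cel, Cela2a and Clps), which encode digestive enzymes of the exocrine pancreas, summed to 0.640, 610 and 0.864 in the same 3 colons. They summed to 432, 111 and 5387 in Flox DSS replicates 1, 2 and 4, and to 5.16 to 153 in Flox and 21.7 to 166 in GR iKO on water. By these sums GR iKO DSS replicates 1 and 4 were the lowest of 14 colons in both lists. By mean log2 level they stayed lowest for the adipocyte genes (-3.46 and -3.59), whereas for the acinar genes Flox water replicate 3 (-4.53) and GR iKO water replicate 2 (-4.43) were below them (-4.09 and -4.16). Of the 7 acinar genes 0 passed in any comparison (limma, with at most 1 at an unadjusted p under 0.05 in a comparison). The highest colon was Flox DSS replicate 2 for the adipocyte genes, which was the lowest of the 3 Flox DSS colons for the acinar genes, where Flox DSS replicate 4 was the highest. The part of attached tissue in the results above was not tested.

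Mesothelium genes, which line the outer surface, summed to 3.59 to 34.1 in Flox and 8.15 to 21.1 in GR iKO on DSS, and both GR iKO DSS replicate 1 (21.1) and 4 (8.15) were above all 8 water colons. The 6 smooth muscle genes summed to 1036 to 1874 in Flox and 353 to 823 in GR iKO on DSS, and 439 to 695 and 413 to 683 on water. Of these, 5 rose with DSS in Flox (all 5 negative under spike-in scaling) and 0 in GR iKO, beside the rise of Plin4 and Slc2a4 in Flox. Macrophage genes summed to 14.7 to 21.3 in Flox and 23.0 to 56.0 in GR iKO on DSS, and 10.9 to 12.5 and 10.8 to 15.3 on water. With DSS 2 of 6 rose in Flox (both negative under spike-in scaling) and 4 of 6 in GR iKO, beside the rise of Apoc1 in Flox. Colon epithelium genes summed to 586 to 810 in Flox and 678 to 1074 in GR iKO on DSS, and 588 to 727 and 641 to 743 on water. By mean log2 level they were at 4.76 to 5.35 on DSS against 5.27 to 5.56 on water in Flox. In GR iKO they were at 5.27 to 5.75 on DSS against 5.36 to 5.64 on water. With DSS 1 of 7 rose and 3 fell in Flox, and 1 rose and 1 fell in GR iKO, beside the falls of Mlxipl and Retsat. Their part in those results was not tested.

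Of 7 adipose progenitor genes, 4 rose and 1 fell in Flox and 3 rose and 1 fell in GR iKO. The 4 in Flox and 1 of the 3 in GR iKO were negative under spike-in scaling. Ly6a was up by 1.41 ± 0.21 and 2.53 ± 0.21, and which cells made its RNA was not tested. Of 6 endothelial genes, 2 rose in Flox and 1 in GR iKO, and of 7 tested skeletal muscle genes 3 rose and 1 fell in Flox and 1 of each did in GR iKO. The progenitor list summed to 63.4 to 72 in the 3 GR iKO DSS colons and to 40.7 to 51.2 in Flox DSS. By mean log2 level the order was another, with GR iKO DSS replicates 1 and 4 (0.82 and 1.12) below the Flox DSS colons (1.2 to 1.37) and replicate 3 (1.59) above them.

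**Figure D4:**
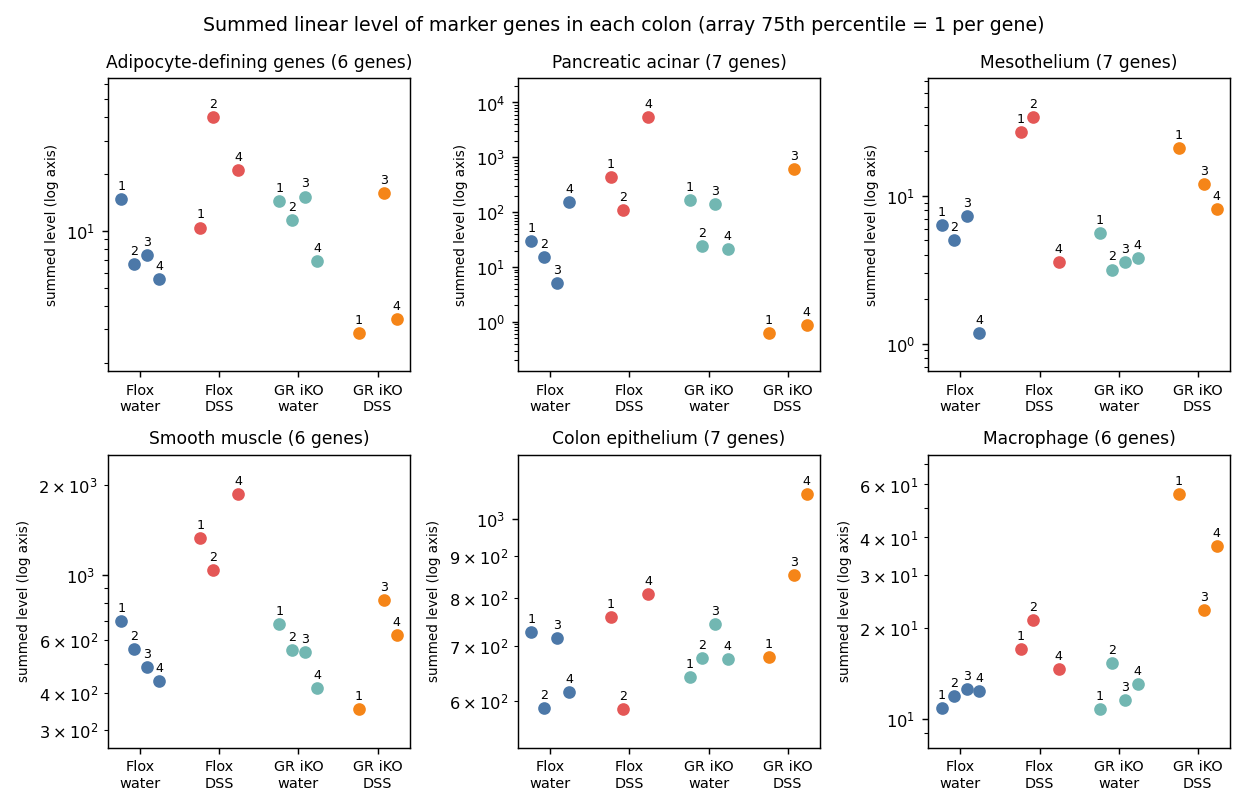
Summed linear level of 6 marker lists in each of the 14 colons, on a log axis, with the array's 75th percentile counted as 1 for each gene. Points are colons labelled by replicate. By this sum GR iKO DSS replicates 1 and 4 are lowest for adipocyte-defining genes (2.89 and 3.39) and for pancreatic acinar genes (0.640 and 0.864, though by mean log2 level 1 Flox and 1 GR iKO water colon are lower in acinar genes), and lie among the other colons for mesothelium.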

How the data were processed

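Total RNA of 14 mouse colons was hybridised to Agilent whole mouse genome arrays in 1 colour. The authors scanned the arrays and extracted spots with Agilent Feature Extraction (12.0.0.7 per the file headers). The deposited intensity per spot is background-subtracted and not scaled between arrays, and small signals are raised to a positive surrogate, which shrinks changes of dim probes. The deposited value table holds log2 values by the authors whose scaling is not given in the sources used here, and correlated with the log2 intensity of the same array with a lowest r of 0.999. The submitters' processing notes also name Partek 6.6.

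For this report, control and outlier spots were left out, spots of a probe were averaged, and log2 processed intensity minus the 75th percentile of the array was used. Gene symbols came from RefSeq accessions matched to a GRCm38.p6 gene table, with 28215 of 29245 such probes matched. Probes well above background on at least 3 of 14 arrays (29523) were tested two-sided with limma 3.58.1 in R 4.3.3, fitting group means over all arrays with 1 weight for water arrays (1.70) and 1 for DSS arrays (0.495), since DSS arrays varied more. P-values were adjusted by Benjamini-Hochberg over all probes, with a threshold of 0.05. The fit was tested on simulated data, where the share of false calls was above the threshold, and higher still with equal weights. Far fewer probes were changed in the simulation than were called with DSS in these data. Its share of false calls therefore need not hold for the DSS comparisons. Alternatives covered array weights, background, scaling, filter, probe choice, slide and replicate blocks and leaving out each array. The normexp alternative used the median spot signal with an offset of 50. Named genes were all members, the largest called changes of each list and the 10 genes most like Adipoq. Members and lists were chosen with earlier results of these data known. Separate cages or cohorts are not given, so p-values measure the spread between these samples. The number of arrays limits the precision.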

Additional observations from a re-analysis of the deposited data

Results flagged for a closer look

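In groups of 4 colons, the gap between the most extreme colon and its nearest neighbour was set against the range of the group. It passed the critical value of Dixon's test in 3 of 54 groups, and chance alone picks about 1 in 20. For Cd36, the fatty acid translocase, GR iKO water replicate 4 stood at -1.50 with the nearest colon at -0.59 (gap over range 0.911). For Thrsp, the lipogenic protein, Flox water replicate 1 stood at 1.96 with the nearest at -0.02 (0.874). For Retsat, the retinol saturase, GR iKO water replicate 4 stood at 2.12 with the nearest at 1.83 (0.904). Groups of 3, which include all DSS groups, were not examined in this way.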

How the results depend on the processing

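The number of members passing with DSS was 14 of 27 in Flox and 11 of 27 in GR iKO, where 13929 and 11442 of 29523 probes passed. Leaving out each array gave 9 to 15 in Flox (lowest without Flox DSS replicate 2, 9) and 6 to 13 in GR iKO (6 without GR iKO DSS replicate 4 and without GR iKO water replicate 3, 7 without GR iKO water replicate 1 and without Flox DSS replicate 2). Of all 29523 probes, 9724 passed in Flox without Flox DSS replicate 2. In GR iKO 8733 passed without GR iKO DSS replicate 4 and 10649 without GR iKO water replicate 3. Other settings gave 13 to 20 members in Flox and 8 to 16 in GR iKO, where spike-in scaling called 25250 and 12514 probes. The number of all probes passing thus moved with the settings too. The 0 members of the genotype comparison on water stayed 0 in every setting run. On DSS 0 members became 7 with equal weights for all arrays and 5 with a quality weight per array, and leaving out each array gave 0 to 7. For the interaction 0 members became 5 with a quality weight per array (2065 of 29523 probes) and 3 with spike-in scaling (8475 of 29523 probes). In each run without 1 array 0 members passed. The cause of these changes was not tested.

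Scaling to spike-in probes turned the sign of 9 DSS changes past the threshold, since it lowered the median of all probes to -2.40 in Flox and -0.95 in GR iKO. In Flox these were Apoc1 (-0.11), Cidec (-0.23), Cidea (-1.47), Cd36 (-1.20), Fabp4 (-0.21), Lipe (-1.63), Pde3b (-1.41) and Slc2a4 (-0.69), and in GR iKO Pde3b (-0.32). It called 85.5% of all probes with DSS in Flox, against 47.2%. The normexp background moved the median of all probes to 0.22 in Flox and 0.13 in GR iKO with DSS and turned no sign. Over all probes, the genotype comparison on DSS called 0.0203%, and 13.2% with equal weights, 11.8% with a weight per array and 2.43% without GR iKO DSS replicate 3.

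Same-numbered samples did not deviate together in every pair (r from -0.23 to 0.31). The sources used here do not say whether replicate numbers pair the mice, and these values cannot exclude it. With the replicate block 14 members passed in Flox and 12 in GR iKO with DSS, where 14280 and 11779 of 29523 probes passed. In the other comparisons 0 members passed, and the changed calls were the same as under the slide block. Depth is limited by signal over background for Lep, Aqp7, Ucp1 and Adig.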
